A study of Mus musculus with 18 samples.

Results

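The response of resting L929 cells to aminooxyacetic acid (AOA) alone was described from 6 of the 18 libraries of the series, the 3 labelled AOA without DNA and the 3 labelled Mock. The libraries were chosen by their labels, and no measured value entered the choice. L929 is an established line of mouse fibroblasts. The Mock cultures received DMSO, and the AOA cultures received 0.5 mM AOA with no herring testis DNA (HT-DNA), no transfection and no aspartate named in their labels. The labels do not give the vehicle of AOA or how long the cultures without HT-DNA were exposed to it. Of the other groups, AOA with 20 mM aspartate is shown for its levels. HT-DNA (0.5 µg/ml for 6 h) with and without AOA is used as a comparison that shares no library with AOA and Mock. In the group with both, 0.5 mM AOA was given 1 h before HT-DNA. No group received aspartate alone, so the effect of aspartate itself cannot be told apart from its effect in the presence of AOA. The study states that each group held 3 independent cultures.

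AOA blocks enzymes that depend on pyridoxal phosphate, above all the aminotransferases, which move amino groups between amino acids and keto acids. The mitochondrial and cytosolic aspartate aminotransferases make aspartate from oxaloacetate and glutamate, and aspartate in turn feeds asparagine, arginine, pyrimidine and purine synthesis and the shuttle that carries NADH equivalents into mitochondria. Cells sense a shortage of amino acids by 2 well known routes. Uncharged tRNA activates the kinase GCN2 (Eif2ak4), which phosphorylates eIF2α and favours translation of ATF4, a transcription factor for amino acid synthesis, uptake and tRNA charging, and the mTORC1 kinase adjusts translation, ribosome production and lipid synthesis to the supply of amino acids.

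Estimated read counts per gene were used, and levels are given as CPM, counts per 1000000 of the library's TMM-scaled total. Fold changes are log2 values fitted by edgeR, AOA minus Mock, and a gene was called where its Benjamini-Hochberg adjusted p-value from edgeR's quasi-likelihood test was under 0.05. Totals were 20008809 to 22200182 counts in Mock and 17901546 to 24057284 in AOA, and the correlation of log2 CPM across genes was 0.9871 to 0.9915 between replicates and 0.972 to 0.9751 between a Mock and an AOA library. Of the 10 fibroblast markers 9 were at 1 CPM or more in a library, with Thy1 as the exception, and their summed level was 5720 to 6187 CPM in Mock and 5928 to 6525 CPM in AOA. Adgre1 and Ptprc, which define macrophages and leukocytes, had 0 counts in all 6 libraries, as did Epcam, Krt5, Cd3e and Cd8a. CD68, a lysosomal protein, accounted for nearly all of the summed macrophage markers, at 118.0 to 133.6 CPM in both groups. In bulk RNA, fewer cells that express a gene and less RNA per cell cannot be told apart.

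AOA changed a large share of the transcriptome, mostly by small amounts. Of the 14263 genes tested, 45.7% were called, 22.4% higher and 23.3% lower, and the 3 Mock libraries did not overlap the 3 AOA libraries for 59.4%. A log2 fold change of 1 or more in either direction was reached by 7.48% of the genes, upward by 3.58% (511 genes) and downward by 3.9% (556 genes). At least 2 was reached by 108 genes upward and 68 downward, and at least 3 by 28 and 10. The median over all genes tested was 0.015. These shares are the background against which the gene groups are read. Where a list had 0 genes called in 1 direction, it also had 0 with DESeq2 and 0 at an unadjusted p-value under 0.05. Some of these lists had calls under other settings. With library totals 1 cytosolic ribosomal protein gene and 1 snoRNA host transcript fell. After correction for GC content and length 2 snoRNA host transcripts fell and 1 sterol gene rose. With library totals in place of TMM the median shifted by -0.131, and the calls became 2124 higher and 4502 lower, so that 32.1% of the calls were higher in place of 49.1%.

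Stress transcripts that ATF4 is known to activate were among the 15 largest rises of called genes that averaged 1 CPM or more with AOA. Ddit3 (ENSMUSG00000025408), which encodes the transcription factor CHOP, was at 47.0, 42.9 and 48.7 CPM in the Mock libraries and at 347.6, 373.6 and 385.4 CPM in the AOA libraries. Ppp1r15a (ENSMUSG00000040435), which encodes GADD34, the phosphatase subunit that removes the phosphate from eIF2α, was at 50.4, 47.8 and 46.8 CPM against 399.2, 365.1 and 345.3 CPM. Every AOA library lay far above every Mock library for both genes. The log2 fold changes were 2.997 (SE 0.095, edgeR adjusted p = 3.49e-14) for Ddit3 and 2.94 (SE 0.074, adjusted p = 1.24e-15) for Ppp1r15a. Gadd45a (ENSMUSG00000036390), a growth arrest gene that both p53 and ATF4 can activate, went from 21.7, 21.8 and 25.9 CPM to 176.4, 180.1 and 175.8 CPM, a log2 fold change of 2.94. In the libraries with AOA and aspartate the levels were 101.3 to 107.2 CPM for Ddit3, 57.5 to 60.5 CPM for Ppp1r15a and 46.3 to 47.6 CPM for Gadd45a, which lay between the Mock and the AOA levels of each gene.

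The wider amino acid response, a list of genes known as ATF4 targets, moved with them. Of the 43 genes of this list that passed the filter on low counts (44 listed), 37 rose, 2 fell and 4 were not called, and their median log2 fold change was 0.56. Chac1, an enzyme that degrades glutathione, rose from 11.3, 12.7 and 10.9 CPM to 41.6, 46.4 and 43.5 CPM. Trib3, a pseudokinase that damps ATF4, rose from 107.0 to 114.3 CPM in Mock to 238.9 to 265.8 CPM in AOA. The groups did not overlap for either gene, and the log2 fold changes were 1.91 and 1.17. Sesn2 and Ddit4, both of which restrain mTORC1, rose by log2 fold changes of 0.89 and 1.05, and Fgf21, a secreted hormone of the fasting response, by 1.78 from a low level of 0.406 to 0.759 CPM in Mock.

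Within the same list the sizes differed widely. Asns (ENSMUSG00000029752), the asparagine synthetase that uses aspartate as its substrate, was at 406.7, 404.3 and 404.5 CPM in Mock, at 546.3, 580.2 and 558.3 CPM in AOA, and at 416.9, 415.4 and 414.8 CPM with AOA and aspartate. Its AOA libraries were all higher than its Mock libraries, with a log2 fold change of 0.47 (SE 0.057, edgeR adjusted p = 2.4e-06). Psat1, the phosphoserine aminotransferase, rose by 0.22 and Phgdh, which opens serine synthesis, by 0.56. The transcript of Atf4 itself had a log2 fold change of 0.15 and was not called (edgeR adjusted p = 0.124). The 2 genes that fell were Atf5, a relative of Atf4, at -0.49, and Slc7a11, the cystine importer, at -0.69. Slc7a11 was at 36.3 to 39.1 CPM in Mock and 22.6 to 24.0 CPM in AOA.

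ATF4 acts through composite elements whose core reads TGATGNAA. That core was searched on both strands of the 250 bases before each gene's start, in the RefSeq promoters of the mouse build GRCm38.p6, and occurred in 13 of the 36 amino acid response genes with a promoter entry (36.1%). It occurred in 2.42% of the 9840 tested genes with an entry, in 2.58% of those that rose and in 2.28% of those that fell. The list is made of known ATF4 targets, and the share among all genes that rose was close to that among all genes tested. The stretches around the core are shown for 4 genes of different size of change, each on the strand of its gene, with the core or its reverse complement in capitals. They lie upstream of Chac1 (chr2:119351019-119351086), Asns (chr6:7693210-7693262), Aars (chr8:111033700-111033767), which encodes the alanyl-tRNA synthetase, and Fgf21 (chr7:45615592-45615659).
Chac1: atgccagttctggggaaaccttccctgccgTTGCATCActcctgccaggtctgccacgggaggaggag
Asns: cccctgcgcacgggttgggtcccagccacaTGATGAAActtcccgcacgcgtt
Aars: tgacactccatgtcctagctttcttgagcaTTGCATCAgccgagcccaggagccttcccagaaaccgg
Fgf21: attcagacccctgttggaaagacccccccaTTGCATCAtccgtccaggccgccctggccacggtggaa
The stretches of Chac1, Aars and Fgf21 carry the same 8 letters TTGCATCA and the stretch of Asns carries TGATGAAA. The log2 fold changes of the 4 genes were 1.91, 0.47, 0.59 and 1.78 in that order.

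**Figure D1:**
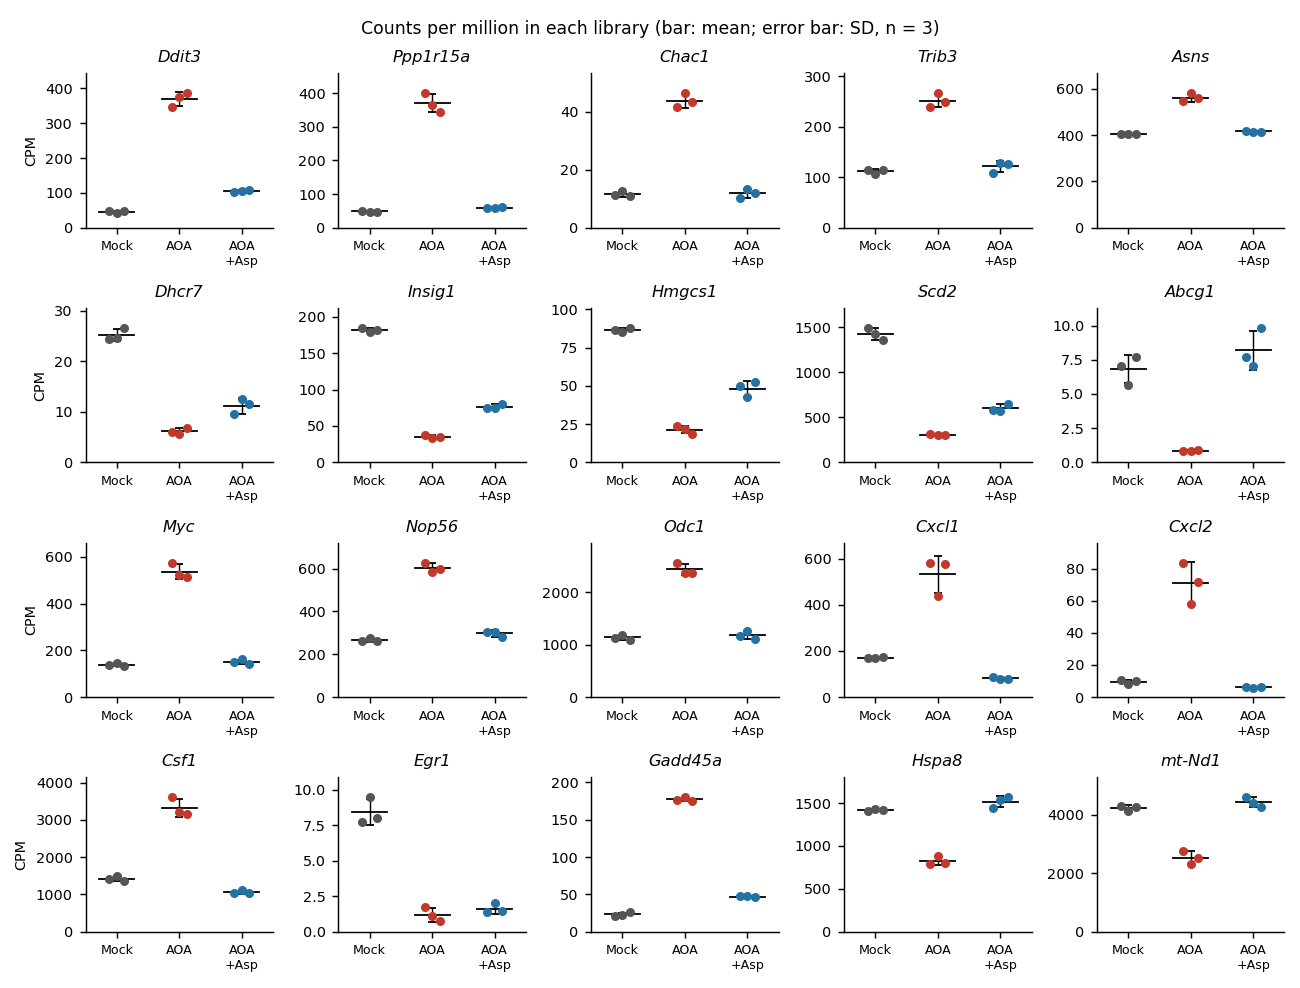
CPM (vertical axes, each starting at 0) of 20 genes in the 3 libraries of Mock, AOA, and AOA with aspartate (horizontal axes), with points for libraries, bars for means and error bars for the SD (n = 3). The Mock and AOA points do not overlap in any panel, as for Ddit3 (42.9 to 48.7 against 347.6 to 385.4 CPM) and Insig1 (179.6 to 184.4 against 33.3 to 37.8 CPM).

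Most genes of the cytosolic enzymes that charge tRNAs rose. Of the 20 cytosolic aminoacyl-tRNA synthetases, all of which passed the filter, 16 rose and 0 fell by edgeR, with a median of 0.41, and the other 4 (Farsb, Qars, Farsa and Lars) had log2 fold changes of 0.05 to 0.21. The largest were those of glycine (Gars, 0.68), serine (Sars, 0.66) and tryptophan (Wars1, 0.63). The synthetase of aspartate (Dars) rose by 0.43 and that of asparagine (Nars) by 0.40, near the median of the list. Of the 17 mitochondrial synthetases 7 rose and 0 fell by edgeR, with a median of 0.19 (0.06 with library totals) and the largest value for Ears2 at 0.76.

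Regulators of eIF2α went in both directions. All 4 kinases that phosphorylate eIF2α were lower with AOA: Eif2ak2 (PKR) at -0.93, Eif2ak3 (PERK) at -0.65, Eif2ak4 (GCN2) at -0.45 and Eif2ak1 (HRI) at -0.25. The call for Eif2ak4 was lost in 4 of the 6 fits that left out 1 library, where its log2 fold change was -0.43 to -0.37. Impact, an inhibitor of GCN2 activation, fell by 0.69 on the log2 scale. The subunits of eIF2B, the exchange factor that eIF2α phosphate blocks, included 3 that rose (Eif2b2, Eif2b3 and Eif2b5) and 2 that were not called. Of the 20 regulators on the list 9 rose and 6 fell.

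Transporters of amino acids moved in both directions, with more rises. Of 22 tested (28 listed), 9 rose and 4 fell. The rises included both chains of the LAT1 exchanger of large neutral amino acids: Slc3a2, the heavy chain, was at 166.5 to 173.8 CPM in Mock and 340.0 to 349.5 CPM in AOA, a log2 fold change of 1.02, and Slc7a5, the light chain, rose by 0.94. The cationic transporters Slc7a1, Slc7a2 and Slc7a3 rose by 0.52, 1.86 and 0.44, Slc7a2 from a mean of only 0.454 CPM. Slc1a4, Slc38a1 and Slc43a2, carriers of neutral amino acids, rose by 0.77, 0.56 and 0.61. Slc7a11, Slc36a1, Slc6a6 and Slc7a7 fell. The neuronal and glial glutamate and aspartate transporters Slc1a1, Slc1a2, Slc1a3 and Slc1a6 had at most 3 counts in a library and were not tested.

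Transcripts of some of the enzymes that AOA is known to inhibit rose by modest amounts. Of 12 aminotransferases tested (18 listed), 7 rose and 1 fell (5 and 4 with library totals). Got1 (ENSMUSG00000025190), the cytosolic aspartate aminotransferase, was at 130.9, 125.0 and 129.4 CPM in Mock and 177.0, 173.5 and 180.0 CPM in AOA, with no overlap, a log2 fold change of 0.46 (SE 0.065, edgeR adjusted p = 1.36e-05). With AOA and aspartate it was at 112.3, 124.8 and 118.0 CPM. Got2, its mitochondrial counterpart, and Gpt2, the mitochondrial alanine aminotransferase, both rose by 0.39. The list also holds Gfpt1, which was not called, and Gfpt2. Both encode amidotransferases that make glucosamine 6-phosphate and do not use pyridoxal phosphate. Gfpt2 rose by 1.34 from 0.973 to 1.19 CPM in Mock to 2.32 to 2.95 CPM in AOA. Kyat3 was the 1 member that fell, at -0.53. Of 21 other tested enzymes that use pyridoxal phosphate 7 rose and 6 fell, so the cofactor did not mark a common direction: Odc1 (1.10) and Cth (0.90) rose while the glycogen phosphorylase Pygb (-0.97) and the sphingosine phosphate lyase Sgpl1 (-0.55) fell.

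Genes that supply and use aspartate moved in both directions. Of 17 tested genes of aspartate, asparagine and arginine metabolism 9 rose and 1 fell, with a median of 0.40. Glul, which makes glutamine, was at 86.8, 89.9 and 83.5 CPM in Mock and 140.2, 133.9 and 127.6 CPM in AOA, with no overlap (log2 fold change 0.63). The proline enzymes Pycr1 and Aldh18a1 rose by 0.78 and 0.49. The mitochondrial aspartate-glutamate carriers Slc25a12 and Slc25a13 fell by 0.65 and 0.73 on the log2 scale. Of 30 genes of the citric acid cycle and pyruvate entry 16 rose and 4 fell, though with library totals 9 rose. Idh1, the cytosolic isocitrate dehydrogenase that makes NADPH, had the lowest value at -0.84.

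Genes of nucleotide synthesis moved in both directions. Of 28 tested pyrimidine genes 11 rose and 5 fell, and with library totals 10 rose and 10 fell. Cad (ENSMUSG00000013629), whose aspartate transcarbamoylase joins aspartate to carbamoyl phosphate, was at 405.0, 405.4 and 367.8 CPM in Mock and 522.2, 537.9 and 484.1 CPM in AOA, a log2 fold change of 0.39 (SE 0.077, edgeR adjusted p = 0.0004). Umps, which completes UMP, was at 285.8, 290.3 and 267.1 CPM against 468.5, 460.5 and 442.7 CPM, a log2 fold change of 0.70. Neither gene's groups overlapped, and with AOA and aspartate Cad was at 356.5 to 420.5 CPM and Umps at 281.2 to 310.9 CPM. Dhodh rose by 0.28 and Ctps by 0.42. The falls were in genes of deoxynucleotide supply and uptake (Dck, Tk1, Rrm2 and Slc29a2) and in the breakdown enzyme Dpys. Of 23 tested purine genes 9 rose (6 with library totals) and 0 fell by edgeR, among them Adsl (0.69) and Prps1 (0.68). Of 13 polyamine genes 4 rose and 1 fell, and Odc1, the ornithine decarboxylase, went from 1089.4 to 1189.9 CPM to 2373.6 to 2568.1 CPM. In serine synthesis and one-carbon metabolism 9 of 16 rose and 1 fell (5 and 4 with library totals), with the mitochondrial folate enzymes Mthfd2 at 0.71 and Aldh1l2 at 1.02.

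Cholesterol synthesis and uptake had the lowest median of the lists. These genes are targets of SREBP2, a membrane-bound transcription factor that INSIG and SCAP hold in the endoplasmic reticulum while sterols are plentiful. Of 26 tested (29 listed), 0 rose and 21 fell by edgeR, with a median of -0.68. Insig1 (ENSMUSG00000045294) was at 184.4, 179.6 and 181.7 CPM in Mock and at 37.8, 33.3 and 35.0 CPM in AOA. It was lower in every AOA library than in any Mock library, with a log2 fold change of -2.36 (SE 0.075, edgeR adjusted p = 3.49e-14).

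The enzymes fell along the length of the pathway. Hmgcs1, which makes HMG-CoA, was at 86.6, 85.3 and 87.7 CPM in Mock and 24.0, 21.5 and 18.8 CPM in AOA, with no overlap and a log2 fold change of -2.01. Dhcr7, a late reductase of the pathway, was at 24.5, 24.6 and 26.6 CPM against 5.62 to 6.803 CPM (-2.04). Mvd (-1.72), Idi1 (-1.16), Fdft1 (-0.87), Sqle (-0.65), Cyp51 (-0.92) and Msmo1 (-1.27), which act between mevalonate and the late sterols, all fell. Srebf2, the gene of SREBP2, fell by 0.33 on the log2 scale, and Scap was not called. The 5 tested genes that were not called (Fdps, Tm7sf2, Ebp, Scap and Npc1l1) had values of -0.22 to 0.24. With AOA and aspartate Insig1 was at 74.1 to 79.96 CPM, above every AOA library and below every Mock library.

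Fatty acid synthesis, driven by the related SREBP1, moved the same way. Of 17 tested genes (20 listed) 0 rose and 12 fell by edgeR, with a median of -0.60. Scd2 (ENSMUSG00000025203), a stearoyl-CoA desaturase, was at 1491.9, 1428.6 and 1364.1 CPM in Mock, at 311.7, 301.0 and 305.4 CPM in AOA, and at 576.0 to 650.1 CPM with AOA and aspartate. Lpin1, a phosphatidate phosphatase, fell from 26.7 to 29.6 CPM to 6.22 to 7.51 CPM and Elovl6, a fatty acid elongase, from 93.5 to 100.3 CPM to 29.6 to 31.04 CPM. The groups did not overlap for these 3 genes, whose log2 fold changes were -2.22, -2.05 and -1.67. Fasn, the fatty acid synthase, fell by 0.72 on the log2 scale and Srebf1, the gene of SREBP1, by 0.95.

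Some genes that answer to the sterol receptor LXR, which responds to surplus sterol in the opposite sense to SREBP2, also fell. Abcg1, which exports cholesterol, was at 7.03, 5.68 and 7.74 CPM in Mock and at 0.828, 0.816 and 0.872 CPM in AOA, 126 to 166 against 15 to 19 counts per library. Its log2 fold change was -3.02 (SE 0.22, edgeR adjusted p = 4.96e-09), and with AOA and aspartate it was at 7.05 to 9.82 CPM, in and above the Mock range. Apoe, an apolipoprotein, fell by 1.28 and Abca1, the other main cholesterol exporter, by 0.56 on the log2 scale. Of the 11 genes 5 fell, of which Srebf1 and Scd1 are also on the fatty acid list, 1 rose and 5 were not called, and the receptors themselves (Nr1h2 and Nr1h3) both had values of -0.04 and were not called.

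A letter pattern of the sterol element, TCACNCCAC, was found on either strand in the promoter of 1 of 21 sterol genes with an entry (4.76%), against 1.2% of the tested genes, and in 0 of 14 fatty acid synthesis genes. The pattern is stricter than the sites SREBP can bind. The 1 match lay before Hmgcs1 (chr13:119690184-119690252), shown here with the pattern in capitals because Hmgcs1 is among the strongest falls.
Hmgcs1: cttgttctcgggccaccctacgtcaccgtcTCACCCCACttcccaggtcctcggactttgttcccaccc

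**Figure D2:**
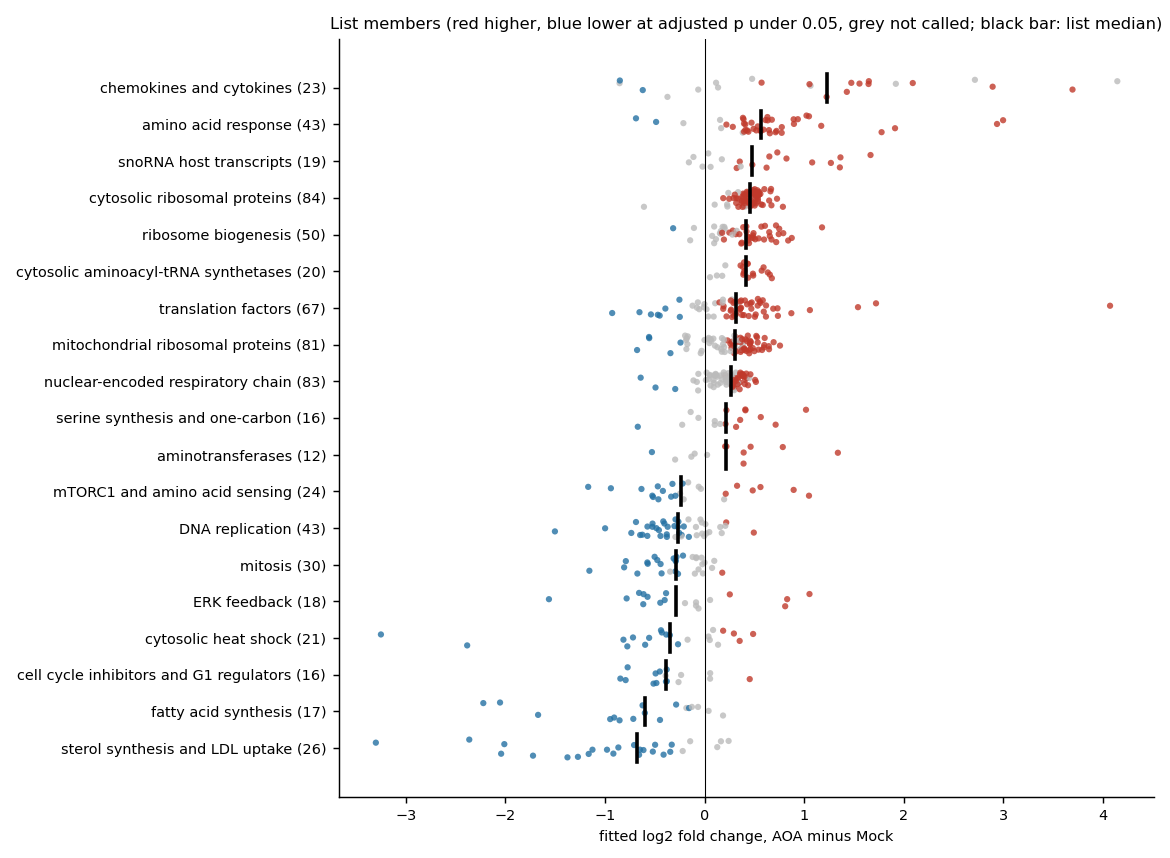
Fitted log2 fold change, AOA minus Mock (horizontal axis), of each tested member of 19 gene lists (vertical axis, number tested in parentheses), with called members in red (higher) or blue (lower), others in grey, and black bars for list medians. Sterol synthesis (median -0.68) lies to the left of 0 and the amino acid response (0.56) and cytosolic ribosomal proteins (0.45) to the right.

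Transcripts for making ribosomes and protein rose broadly and by small amounts. Of 84 tested cytosolic ribosomal protein genes 75 rose and 0 fell by edgeR, with a median of 0.45. With library totals 52 rose and 1 fell, and 50 to 77 rose in the fits that left out 1 Mock or AOA library. Rplp0, a protein of the ribosomal stalk, was at 2862.9, 2914.7 and 3045.9 CPM in Mock and 4062.5, 4289.1 and 4428.8 CPM in AOA, a log2 fold change of 0.54. Of 67 tested genes on the translation factor list, which also holds kinases and binding proteins of these factors, 45 rose and 8 fell (29 rose with library totals). Eef2, the translocation factor, was at 2043.6 to 2074.4 CPM in Mock and 3046.1 to 3166.3 CPM in AOA. Eef1a1, which delivers tRNAs, was at 7078.4 to 7179.1 CPM against 9789.5 to 9923.3 CPM. The groups of all 3 genes were apart. The 8 translation genes that fell included the 4 eIF2α kinases, Eif2a, Eif5b, Eif4ebp2 and Eif4enif1. The counts of Eef1a1 and Rplp0 are less certain, since 51.5% and 42.8% of their 31-base sequences also occur in transcripts of other genes. The same share was 63.9% for mt-Co1, 56.3% for Phgdh, 31.3% for Odc1 and 30.9% for Got2.

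The factors that build ribosomes rose as well. Myc (ENSMUSG00000022346), a transcription factor that drives ribosome production, was at 139.1, 143.7 and 134.8 CPM in Mock, at 575.1, 520.8 and 515.5 CPM in AOA and at 143.0 to 161.2 CPM with AOA and aspartate. All AOA libraries exceeded all Mock libraries, with a log2 fold change of 1.95 (SE 0.067, edgeR adjusted p = 1.06e-13). Of 50 ribosome biogenesis genes 35 rose and 1 fell (27 and 3 with library totals), with a median of 0.42. Nop56, a protein of the snoRNPs that methylate ribosomal RNA, rose from 261.4, 276.1 and 263.8 CPM to 628.0, 585.7 and 600.8 CPM (log2 fold change 1.18), and Rrp1b and Rrs1, both nucleolar, by 0.88 and 0.84. The 1 that fell was Polr1b, a subunit of RNA polymerase I, at -0.32. Nop56 shares 22.4% of its 31-base sequences with other transcripts. The letters CACGTG, an element to which MYC can bind, were in 9.09% of 44 ribosome biogenesis promoters and in 9.98% of those of all tested genes.

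Host transcripts of snoRNAs, non-coding RNAs whose introns hold the guides for ribosomal RNA modification and which nonsense-mediated decay clears while they are translated, rose with these groups. Of 19 tested 12 rose and 0 fell by edgeR, with a median of 0.48. Snhg1 was at 102.5, 108.5 and 110.7 CPM in Mock and 327.2, 331.1 and 362.5 CPM in AOA (log2 fold change 1.67, no overlap). Snhg5, Snhg12, Snhg16 and Snhg15 rose by 1.36, 1.36, 1.27 and 1.08, whereas Snhg3, Snhg4, Snhg14 and Snhg18 had values below 0 and were not called.

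Of 24 genes of mTORC1 and the sensing of amino acids 6 rose and 12 fell, with a median of -0.23. Castor2, a relative of the arginine sensor Castor1, fell from a mean of 26.2 to 11.6 CPM (log2 fold change -1.17), whereas Castor1 rose by 0.48. Depdc5, a part of the GATOR1 complex that restrains mTORC1, fell from a mean of 60.5 to 31.4 CPM (-0.94). Mtor itself fell by 0.42 on the log2 scale and Rptor, its partner, by 0.22. Sesn2 and Ddit4, which restrain the kinase, and Rheb, which activates it, were among the 6 that rose.

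Transcripts of nuclear genes for the mitochondrial machinery rose in part and by small amounts. Of 81 mitochondrial ribosomal protein genes 44 rose and 5 fell, with a median of 0.31, and 28 rose with library totals. Of 83 tested genes of the respiratory chain 30 rose and 3 fell, with a median of 0.27, but 76 of the 83 had values above 0. The number that rose fell to 12 with library totals and to 13 to 16 in the fits without AOA replicate 2, AOA replicate 3, Mock replicate 1 or Mock replicate 2, and was 48 with only the 6 libraries fitted. Among 31 genes of mitochondrial protein folding, import and dynamics 16 rose and 6 fell. Oma1, the protease that cuts the DELE1 and OPA1 proteins under mitochondrial stress, had the highest value at 1.52, and the matrix chaperones Hspd1 and Hspa9 and the protease Lonp1 rose by 0.45, 0.53 and 0.61.

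The transcripts of the mitochondrial genome moved in both directions. The genome is transcribed as long precursors that are cut at the tRNAs, with the ribosomal RNAs and mt-Nd1 and mt-Nd2 first along the heavy strand. mt-Nd1 was at 4303.2, 4140.0 and 4268.5 CPM in Mock and 2748.9, 2305.3 and 2527.5 CPM in AOA (log2 fold change -0.75, edgeR adjusted p = 1.12e-07). mt-Nd2 fell by 0.61 and mt-Rnr1, the small ribosomal RNA, by 0.71 on the log2 scale, and mt-Rnr2 had -0.22 and was not called (adjusted p = 0.363). Past them, mt-Co1 was at 9269.2 to 9970.4 CPM in Mock and 12244.2 to 13111.7 CPM in AOA (0.40), and mt-Cytb, the last gene on that strand, rose by 0.42, while mt-Nd4 (-0.17) and mt-Nd4l (-0.21) between them were not called. With AOA and aspartate mt-Nd1 was at 4258.3 to 4597.0 CPM, near Mock, and mt-Co1 at 12370.9 to 13194.5 CPM, near AOA.

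Some mitochondrial genes cannot be separated from copies in the nuclear genome. The pseudogene Gm28661 shares all its sequence with mt-Co2, and the sum of the 2 rose in all AOA libraries, from 5137.5 to 5431.2 CPM to 7305.4 to 8558.4 CPM. The sum of mt-Co3 and Gm28437 was 5398.4 to 5930.8 CPM against 6356.3 to 8144.7 CPM, also apart. The sum of mt-Atp6 and Gm10925 was 2258.4 to 2655.7 CPM against 2235.8 to 2563.1 CPM, which overlapped. These sums were not part of the fit and have no adjusted p-value.

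**Figure D3:**
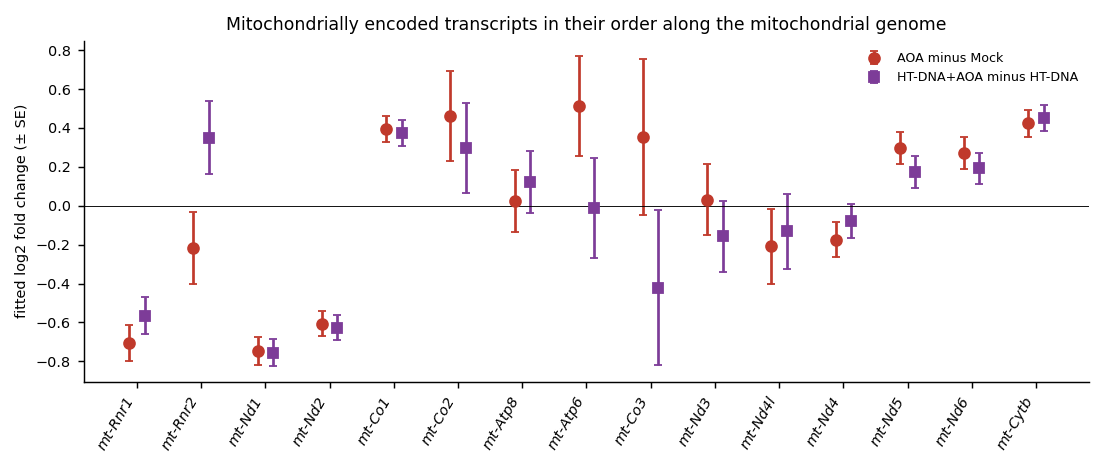
Fitted log2 fold change with its SE (vertical axis) of the mitochondrially encoded transcripts in their order along the mitochondrial genome (horizontal axis), for AOA minus Mock (circles) and HT-DNA with AOA minus HT-DNA (squares). mt-Nd1 (-0.75) and mt-Nd2 (-0.61) lie below 0 and mt-Co1 (0.40) above it.

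Genes of the cell cycle fell. Of 43 DNA replication genes 26 fell and 2 rose, with a median of -0.27. E2f2 (ENSMUSG00000018983), a transcription factor of entry into S phase, was at 30.2, 29.7 and 29.2 CPM in Mock and 9.68, 11.6 and 10.1 CPM in AOA, a log2 fold change of -1.50 (SE 0.095, edgeR adjusted p = 7.5e-10). Pcna, the sliding clamp, was at 241.4 to 251.7 CPM against 149.9 to 173.9 CPM, and Ccne2 and Cdc6, which license and start replication, fell by 1.00 and 0.74 on the log2 scale. The 2 that rose were Cdt1 (0.22) and Pold2 (0.49).

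Of 30 mitosis genes 17 fell and 1 rose (Birc5, 0.18), with a median of -0.29. Mki67, the proliferation marker, was at 342.6, 372.7 and 363.7 CPM in Mock and 201.0, 212.3 and 210.1 CPM in AOA, and Ttk, a spindle checkpoint kinase, fell by 1.16 on the log2 scale. Several core mitotic genes were not called, among them Cdk1 (-0.02), Ccna2 (0.07), Ccnb2 (-0.00) and Cdc20 (-0.03). Of 16 G1 regulators and inhibitors 10 fell, including the retinoblastoma genes Rb1, Rbl1 and Rbl2 and the inhibitors Cdkn2c, Cdkn2d and Cdkn1a, and Cdk4 rose from a mean of 344.5 to 471.5 CPM (0.45). Replication-dependent histone genes, of which 22 of 68 passed the filter, showed 1 rise and 1 fall.

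Targets of p53 had no common direction. Of 28 tested 11 rose (7 with library totals) and 8 fell. Cdkn1a, the p21 inhibitor, was at 73.3 to 80.4 CPM in Mock and 57.1 to 60.01 CPM in AOA, a log2 fold change of -0.38, and Mdm2 had -0.33 and was not called. Gadd45a, Fas, Plk2 and Rrm2b had the highest values, at 2.94, 1.59, 1.07 and 0.90. Apaf1, which forms the apoptosome, and Trp53inp1 fell by 1.16 and 1.08 on the log2 scale. Of 23 apoptosis regulators 10 fell and 3 rose, and the caspase genes Casp6, Casp8 and Casp9 were among those that fell, at -0.40, -0.91 and -0.89.

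Chemokine and cytokine transcripts rose in cells that had received no DNA. Of 23 tested (36 listed) 11 rose and 2 fell, with a median of 1.23, the highest of the lists. Cxcl1 (ENSMUSG00000029380), a neutrophil attractant, was at 167.3, 169.5 and 173.4 CPM in Mock and 583.3, 440.3 and 577.0 CPM in AOA. Cxcl2 was at 10.6, 8.20 and 9.82 CPM against 83.7, 57.7 and 71.8 CPM. Both groups were apart, with log2 fold changes of 1.65 (SE 0.090, edgeR adjusted p = 9.45e-11) and 2.89 (SE 0.12, adjusted p = 2.03e-12). With AOA and aspartate Cxcl1 was at 78.3 to 86.9 CPM and Cxcl2 at 5.73 to 6.53 CPM, below every Mock library.

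Csf1, the growth factor of macrophages, was at 1421.0, 1485.0 and 1355.4 CPM in Mock, at 3606.5, 3207.7 and 3148.7 CPM in AOA, and at 1033.2 to 1116.2 CPM with AOA and aspartate. Ccl2 and Ccl7, monocyte attractants, rose by log2 fold changes of 1.43 and 1.55, Lif by 1.05 and Il6 by 1.47. Cxcl3 rose from 2 to 5 counts per library in Mock to 40 to 57 counts in AOA. Ccl5, Cxcl11 and Ccl4 had high fitted values and were not called. Where at least 10 counts were asked for in every library, 7 of the chemokine and cytokine genes rose. Ifnb1 had 0 counts in all 6 libraries, which allows up to 3 counts in each.

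Of 17 tested NF-kB subunits and feedback genes 9 rose, 1 fell and 7 were not called, with a median of 0.24 (0.11 with library totals). Relb, a subunit of the non-canonical route, was at 6.86, 6.04 and 7.07 CPM in Mock and 20.5, 19.4 and 17.3 CPM in AOA (log2 fold change 1.52), Nfkb2 rose by 0.99, and Nfkbia, the inhibitor that NF-kB itself induces, by 0.52. Tnfaip3, another target that damps the pathway, had -0.17 and was not called, nor was Rela (0.01). The pattern GGGNNTTCC on either strand was in 7 of 14 promoters of this list (50%), in 3 of 15 chemokine promoters (20%), in 7.47% of tested genes and in 7.38% of the genes that rose. The promoter stretch of Nfkb2 (chr19:46304668-46304736), which holds 3 overlapping or neighbouring matches, is shown with the first match in capitals.
Nfkb2: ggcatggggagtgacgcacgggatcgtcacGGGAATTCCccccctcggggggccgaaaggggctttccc

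Among genes of cytosolic DNA sensing, more fell than rose in these cultures, which received no DNA. Of 21 tested 11 fell and 5 rose, with a median of -0.40. With HT-DNA, AOA raised 8 of them and lowered 7, with a median of 0.11. The difference between the 2 effects was called for 8, all with a higher value with HT-DNA. Sting1, the adaptor on the endoplasmic reticulum, had a log2 fold change of -0.95, Ikbke of -0.97 and Cgas, the sensor, of -0.49. Tbk1, the kinase of the route, was at 59.5, 60.5 and 58.5 CPM in Mock, at 37.0, 35.1 and 33.2 CPM in AOA and at 60.8 to 69.5 CPM with AOA and aspartate. Irf3, the transcription factor that TBK1 phosphorylates, rose by 0.27, and Zbp1 rose by 1.75 from a mean of 0.0757 CPM to 0.256 CPM, a level of a few reads.

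Immediate early genes moved in both directions. Of 36 tested 10 rose and 14 fell. Egr1, Egr2, Fos, Fosb and Arc, which answer to the ERK and SRF route within minutes, all fell: Egr1 was at 7.74, 9.46 and 8.02 CPM in Mock and 1.71, 1.07 and 0.756 CPM in AOA (log2 fold change -2.82), and Arc at 24.4 to 26.1 CPM against 5.15 to 5.76 CPM (-2.20). With AOA and aspartate Egr1 was at 1.35 to 2.06 CPM, near AOA, and Arc at 13.5 to 17.7 CPM. Of 18 ERK feedback genes 9 fell and 4 rose. Called members included Etv1 (-1.56) and Dusp6 (-0.57), which report on ERK activity, and Spry4 and the 3 Spred genes. Values on this list ran from -1.56 to a called rise of 1.05, and ERK activity itself was not tested. Id3, an inhibitor of differentiation factors, rose from 4.40, 7.98 and 4.51 CPM to 27.7, 30.4 and 29.5 CPM (2.38), whereas Id2 fell by 0.57 on the log2 scale and Id1 was not called. Of 26 genes of TGF-β and BMP signalling, to which the Id genes belong, 7 rose and 8 fell.

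Chaperone genes of the cytosol mostly fell. Of 21 tested cytosolic heat shock genes 12 fell and 4 rose, with a median of -0.35. Hspa8, the constitutive HSC70, was at 1402.5, 1427.0 and 1420.8 CPM in Mock, at 793.2, 881.8 and 806.5 CPM in AOA and at 1443.4 to 1567.8 CPM with AOA and aspartate. Summed with its pseudogene Gm15459, with which it shares reads, the level was 2421.2 to 2469.6 CPM against 1347.4 to 1508.3 CPM. The stress-inducible pair Hspa1a and Hspa1b, which share most of their sequence, summed to 8.65 to 10.8 CPM in Mock and 1.59 to 2.04 CPM in AOA. After correction for GC content and length, 9 of the heat shock genes fell and 5 rose. In the endoplasmic reticulum 9 of 32 genes rose and 3 fell, but with library totals 2 rose and 7 fell. Hspa5, the main chaperone BiP, was at 4025.6 to 4052.5 CPM in Mock and 5402.5 to 5507.5 CPM in AOA (0.44), but also at 5406.8 to 5760.6 CPM with AOA and aspartate. Ern1, the gene of the sensor IRE1, rose by 1.18, and Xbp1 (-0.04) and Herpud1 (-0.13) were not called.

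Glycolysis and oxygen-regulated genes did not share a direction. Of 17 glycolytic genes 5 rose and 5 fell, and of 24 HIF targets 6 rose and 9 fell, with Egln3, a prolyl hydroxylase, from a mean of 272.1 to 82.8 CPM (-1.72) and Vegfa at 0.67. In the pentose phosphate pathway the 2 oxidative steps that yield NADPH fell, G6pdx at -0.54 and Pgd at -1.05, while 3 of the 8 genes rose. Of 34 NRF2 antioxidant genes 10 rose (5 with library totals) and 11 fell. Cat (the catalase), Gclm, Gsr and Txnrd1 were among those that fell, whereas Gpx4 and Gss rose by 0.47 and 0.45. Of 49 lysosome and autophagy genes 18 rose (8 with library totals) and 15 fell, with the regulator Tfeb at -0.88 and the autophagy receptor Sqstm1 at 0.72. Of 49 proteasome genes 17 rose and 5 fell, led by the assembly factors Psmg3 (0.88) and Psmg1 (0.72).

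Of 25 extracellular matrix genes 12 rose (7 with library totals) and 6 fell. Fn1, the fibronectin gene, went from a mean of 32.5 to 60.7 CPM (0.90) and Col1a2 fell by 0.82 on the log2 scale while its partner Col1a1 had -0.01 and was not called. Plat, a plasminogen activator, rose from a mean of 1.65 to 4.85 CPM. Of 12 tested matrix proteases and inhibitors 4 rose and 4 fell, and of 28 actin and adhesion genes 11 rose and 4 fell. In the circadian clock 4 of 17 genes rose and 5 fell. Per2 was at 4.89 to 5.99 CPM in Mock and 13.8 to 16.3 CPM in AOA and Ciart at 7.93 to 9.23 CPM against 29.3 to 33.0 CPM, and with AOA and aspartate both were near Mock, at 4.43 to 5.73 and 9.90 to 11.01 CPM. Of 337 zinc finger genes named by Zfp numbers 52 rose and 75 fell. The medians of the pyrimidine, aspartate shuttle, immediate early, p53, glycolysis, pentose phosphate, NRF2, lysosome, endoplasmic reticulum folding, matrix protease, clock, actin and histone lists changed sign with library totals in place of TMM, so no direction is given for these lists as a whole.

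Outside the lists, among called genes whose higher group averaged 1 CPM or more, the lowest fitted value was that of Slco4a1, a transporter of organic anions, at 5.16, 4.82 and 6.12 CPM in Mock and 0.259, 0.515 and 0.407 CPM in AOA (log2 fold change -3.73, SE 0.27, edgeR adjusted p = 3.79e-09). Angpt1, a vascular growth factor, fell from 3.20 to 0.498 CPM and Ndrg4 from 6.41 to 1.11 CPM as means. Several of the largest rises began near 0. Hhipl1 had 3, 3 and 1 counts in Mock and 48, 40 and 32 in AOA, Gfra1, a receptor of the GDNF family, had 3, 2 and 0 against 31, 24 and 29, and Nat8 had 3, 1 and 3 against 29, 26 and 20. Sspo had 4, 2 and 5 counts against 53, 75 and 49. Clec2d, a ligand of an inhibitory receptor of natural killer cells, rose from 0.901 to 1.57 CPM to 8.23 to 12.2 CPM and Cavin4 from 9 to 15 counts to 82 to 84 counts.

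Length went with the change across the transcriptome. The 13909 tested genes with a transcript in GENCODE vM21 (97.5%) were put into 10 bins of equal number by transcript length, GC content and the span of the gene. The median log2 fold change was 0.248 in the bin with the shortest transcripts (69 to 1138 bases) and -0.196 in the bin with the longest (6497 to 123179 bases), and it fell from each bin to the next. In the shortest bin 25.4% rose and 6.61% fell, and in the longest 12.9% rose and 36.7% fell. By gene span the medians were 0.212 and -0.141. Protein-coding genes outside the ribosomal, mitochondrial, translation and proteasome lists showed a like slope, from 0.185 to -0.212. By GC content the median was -0.091 in the lowest bin, 0.070 in the seventh and -0.006 in the highest. With HT-DNA the AOA effect had no such slope in length, at 0.059 and 0.086 in the first and last bin, but went from 0.197 to -0.269 with GC content. After correction for GC content and length in each library, 3842 genes rose and 3543 fell, and 60 of the 84 ribosomal protein genes and 25 of the 83 respiratory chain genes rose.

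**Figure D4:**
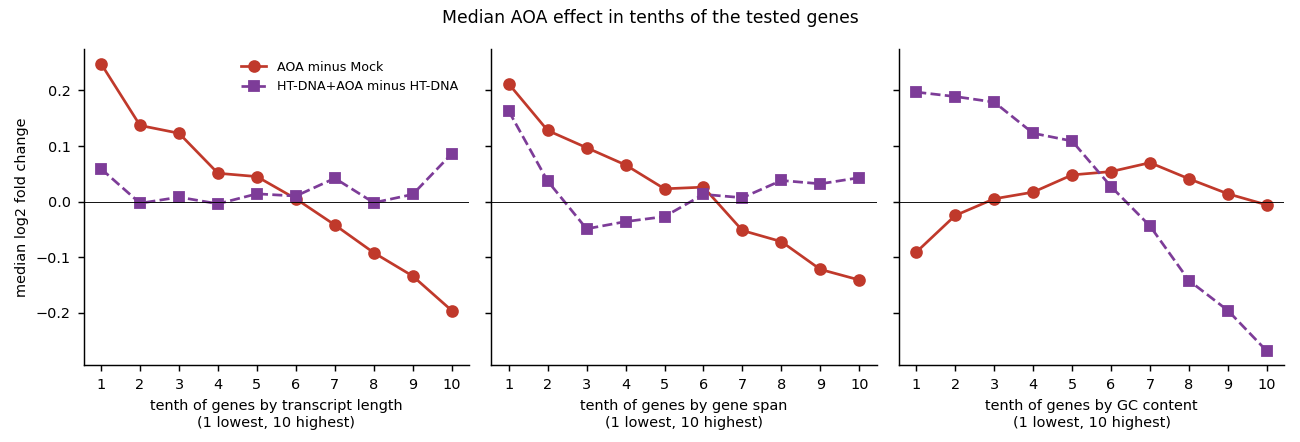
Median log2 fold change (vertical axis) in 10 equal bins of the tested genes by transcript length, gene span and GC content (horizontal axes, lowest to highest), for AOA minus Mock (circles) and HT-DNA with AOA minus HT-DNA (squares). AOA minus Mock runs from 0.248 in the shortest transcripts to -0.196 in the longest.

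A comparison with AOA given 1 h before HT-DNA, in 6 other libraries, shows which of these changes were also seen in other cultures. The replicates with HT-DNA and AOA agreed least of all groups. Their correlations of log2 CPM were 0.975 to 0.9871, against 0.9871 to 0.9915 in Mock and AOA. There 22.8% of the genes were called higher and 22.7% lower. The 2 effects had a correlation of 0.61 across the genes tested, and 71.2% of the genes had the same sign. Genes are not independent replicates, and this is a description. Of the 3199 genes that rose with AOA alone, 1759 (55%) also rose with HT-DNA and 85 (2.66%) fell. Of the 3317 that fell, 2019 (60.9%) also fell and 87 (2.62%) rose. Among changes of 1 or more on the log2 scale, 393 of 511 rises (76.9%) and 363 of 556 falls (65.3%) were called in the same direction.

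The amino acid response and the chemokines rose with HT-DNA too. Of the 43 amino acid response genes 36 rose and 1 fell, with a median of 0.72, and 18 of the 23 chemokine and cytokine genes rose, with a median of 1.59. The difference between the 2 effects was itself called, as the interaction in the same fit, for 15.5% of all genes, 7.23% with a higher value with HT-DNA and 8.26% with a lower one. Cxcl2 rose by 4.17 with HT-DNA against 2.89 without, and Fgf21 by 3.67 against 1.78, though the call for Fgf21 held in only 5 of the 12 fits that left out 1 library. Eif2ak2, which interferon induces, rose by 0.98 with HT-DNA where it fell by 0.93 without. Myc (1.89), Snhg1 (1.58) and Per2 (1.29) rose with HT-DNA too, and for these the interaction was not called.

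Many of the lipid genes fell less with HT-DNA. The interaction was called for 14 of the 26 sterol genes and 8 of the 17 fatty acid genes, all with a higher value with HT-DNA, and the medians were -0.33 and -0.17. Insig1 fell by 1.26 on the log2 scale in that setting. Its mean level was 181.9 CPM in Mock and 114.7 CPM with HT-DNA alone. With AOA it was 35.4 CPM, and with HT-DNA and AOA 47.8 CPM. For Scd2 the 4 means were 1428.2, 601.9, 306.1 and 289.0 CPM in that order. Both genes were lower with HT-DNA alone than in Mock, so the 2 effects started from different levels. With HT-DNA 21 of 50 ribosome biogenesis genes rose, with a median of 0.15, and 11 of 84 cytosolic ribosomal protein genes, with 0.10. The interaction was called for 24 of the 50 biogenesis genes, 15 of the 81 mitochondrial ribosomal protein genes and 9 of the 84 cytosolic ones, all with a lower value with HT-DNA. For most of the cytosolic ribosomal protein genes a difference between the 2 effects was thus not called. Replication genes fell in both settings, 26 of 43 without and 25 of 43 with HT-DNA. The number of interaction calls rested on single libraries: it was 2209 in all, 5420 without HT-DNA with AOA replicate 3, and 1145 to 1422 without AOA replicate 2, HT-DNA replicate 1 or 3, HT-DNA with AOA replicate 2, or Mock replicate 1 or 2.

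**Figure D5:**
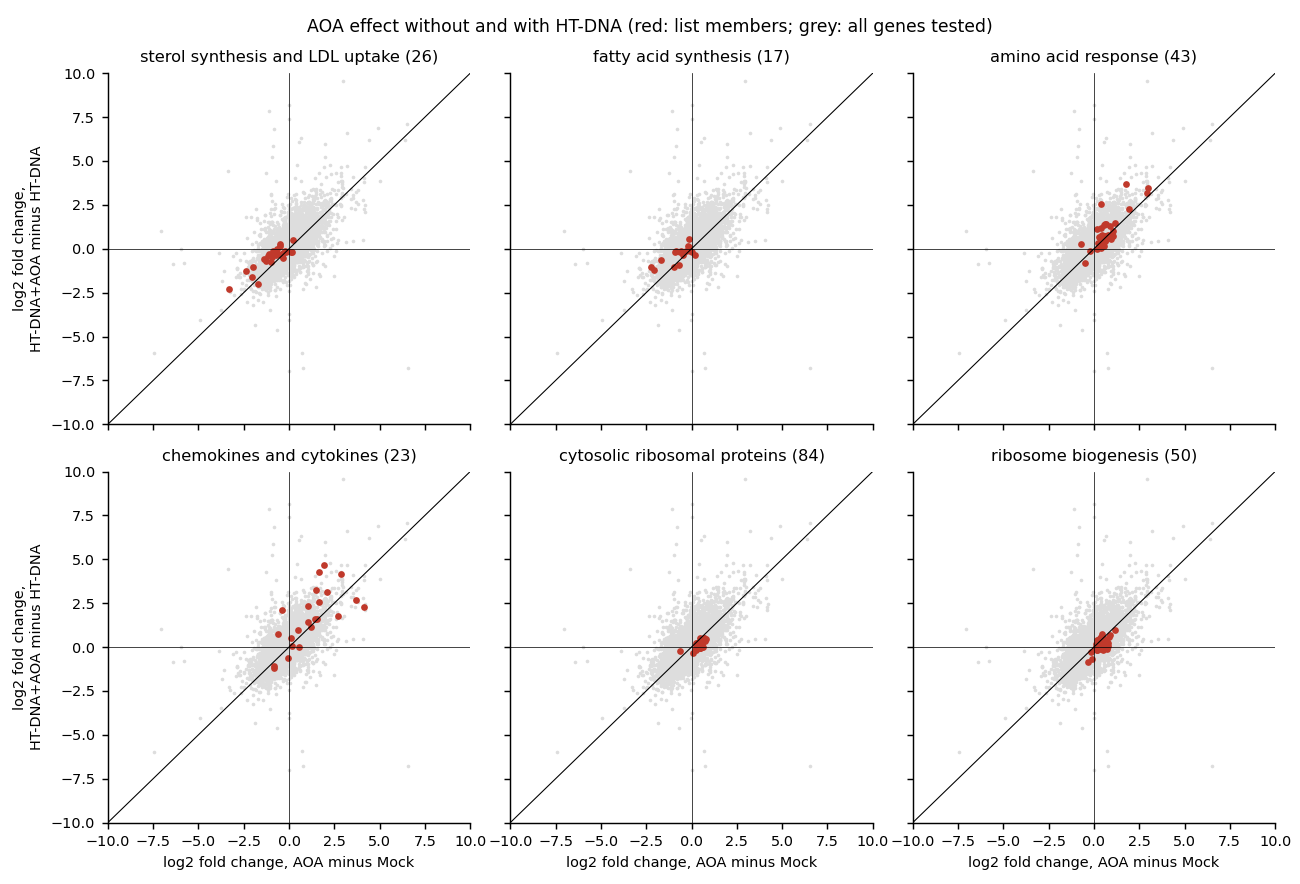
Log2 fold change of AOA with HT-DNA (vertical axes) against without HT-DNA (horizontal axes) for the tested members of 6 lists (red) over all tested genes (grey), with the line of equal effect. Sterol genes (medians -0.33 with and -0.68 without) lie above the line and ribosome biogenesis genes (0.15 and 0.42) below it.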

How the data were processed

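RNA of 18 L929 cultures was sequenced. The authors deposited expected counts, the estimated number of reads their counting program gave each gene, without normalization. Of these values 11.6% were not whole, so all were rounded. The design had assumed whole counts. The aligner, counter and build are not given in the sources used here. The authors' 6 group means were not used. Counts were fitted in R 4.3.3 with edgeR 4.0.16 (filterByExpr, minimum count 10, minimum total 15; TMM; robust quasi-likelihood model over all 18 libraries), which left 14263 genes. The steps were tested on simulated data in which few genes changed, with as many rises as falls. Such data cannot show how TMM behaves where 45.7% of the genes are called. Replicates varied beyond counting error. Chi-square per degree of freedom was 3.62 to 13.3 in Mock and AOA, 6.76 to 11.6 with HT-DNA alone and 18.2 to 67 with HT-DNA and AOA. Named genes were the members of 51 lists, the 15 largest rises and falls on the log2 scale among called genes whose higher group averaged 1 CPM or more, and the 8 largest in CPM. A few of these genes are not reported here. Members and lists were chosen with earlier results of these data known. Lists are described by counts and medians and were not tested. GENCODE vM21 gave length, GC content and shared 31-base sequences, and RefSeq (GRCm38.p6) gave promoters. Either may differ from the authors' annotation. Alternatives were DESeq2 1.42.0, other normalizations and filters, the compared libraries only, a replicate block, each library left out, and a loess correction (span 0.3) for GC content and length.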

Additional observations from a re-analysis of the deposited data

Results flagged for a closer look

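For 38 of the 105 genes whose values were recomputed under every alternative, the AOA effect differed between cultures with and without HT-DNA (interaction in the edgeR fit, adjusted p-value under 0.05), against 15.5% of all genes tested. Of the 105 genes 103 were called for AOA against Mock, and the interaction subtracts that same effect. Their share is thus not comparable with that of all genes. The interaction was called for 684 of the 3199 genes that rose with AOA and for 708 of the 3317 that fell. In 34 of the 38 both effects had the same direction, and 23 were called in all fits that left out 1 library. Values are the log2 effect with HT-DNA minus that without. Each effect is taken against its own group without AOA, which is HT-DNA alone or Mock. The mean levels of these 2 groups differed for some genes, such as Slco4a1 (1.63 and 5.37 CPM) and Hspa8 (2208.3 and 1416.8 CPM).

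Lipid genes had higher values with HT-DNA, namely Sqle (0.36), Scd1 (0.46), Idi1 (0.73), Hmgcs1 (0.96), Elovl6 (1.04), Insig1 (1.10) and Scd2 (1.16). So did genes of the amino acid response and its neighbours, namely Gpt2 (0.29), Cth (0.37), Ddit3 (0.45), Aldh1l2 (0.78), Gadd45a (0.94), Slc7a11 (0.94), Gfpt2 (1.37) and Fgf21 (1.89), the chemokines Cxcl1 (0.89) and Cxcl2 (1.28), and the ERK-regulated genes Dusp6 (0.44), Etv1 (0.86), Arc (0.87) and Egr1 (1.33). Tbk1 (0.45), Cdkn1a (0.62), Ndrg4 (1.09), Slco4a1 (1.90) and Eif2ak2 (1.91) were also above 0.

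The values were below 0 for Id3 (-2.18), E2f2 (-0.78), Hspa8 (-0.67), Glul (-0.61), Rplp0 (-0.47), Phgdh (-0.43), Cad (-0.42), Eef2 (-0.38), Odc1 (-0.38), Slc7a5 (-0.37), Umps (-0.37) and Got2 (-0.30). For Id3 the log2 fold change was 2.38 without HT-DNA and 0.20 with it, and for Cad it was 0.39 and -0.03. The call was lost in at least 1 fit that left out a library for 15 of the 38 genes. It held in 1 of 12 fits for Phgdh, Eef2 and Got2, in 2 for Slc7a5, Tbk1 and Gfpt2, in 4 for Gpt2, in 5 for Rplp0 and Fgf21, in 6 for Ddit3 and Dusp6, in 7 for Scd1, in 8 for Sqle and Cth and in 11 for Ndrg4.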

How the results depend on the processing

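Of 105 named genes 103 were called, and 100 kept call and direction under every alternative. None of the 103 reversed. Psat1 (0.09) and Ncl (0.32) lost the call with library totals, and Eif2ak4 without 4 single libraries. DESeq2 called 3217 genes higher and 3338 lower. With library totals 2124 genes were higher, and rises numbered 9 in the citric acid cycle list, 5 for NRF2, 7 for p53, 12 in the respiratory chain, 28 for mitochondrial ribosomal proteins, 29 for translation factors, 10 in the proteasome, 8 in the lysosome and 7 in the extracellular matrix. With at least 10 counts in every library 585 genes passed a log2 fold change of 1 (242 higher, 343 lower), and 7 chemokine and cytokine genes rose. With only the libraries compared the AOA effect with HT-DNA had 4167 calls (1972 higher), the interaction 1019, the respiratory chain 48 rises (48 also with no filter) and the proteasome 28. Leaving out each library gave 5449 to 5938 calls for AOA against Mock, 5569 to 7455 with HT-DNA, 1145 to 5420 for the interaction and 13 to 34 respiratory chain rises. Between Mock and AOA, same-number correlations of the deviations from group means were 0.18, -0.04 and 0.18 for replicates 1, 2 and 3. Different-number ones were -0.224 to 0.065. With 3 libraries a group, these values cannot decide whether the replicate number paired samples. A replicate block gave 3278 higher and 3339 lower calls. Depth limits the genes near 0 in Mock, such as Cxcl3 and Hhipl1.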

Other observations

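Among 302 KEGG pathways with 15 to 300 tested genes, read from the deposited table and described without a test, steroid biosynthesis had the lowest median log2 fold change (-0.65, 2 of 16 genes higher and 11 lower), and terpenoid backbone biosynthesis was among the 8 lowest (-0.34 over 21 genes). JAK-STAT signaling was also among them, with 42 of 89 genes lower and 12 higher. The highest was the ribosome (0.44, 103 of 130 genes higher), followed by alanine, aspartate and glutamate metabolism (14 of 26 higher), and aminoacyl-tRNA biosynthesis had 27 of 44 genes higher. Immune disease pathways with few called genes were among the 8 highest too, such as allograft rejection, with 7 of 22 genes higher.

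By biotype, 18.3% of 1428 lncRNA genes were higher and 12% lower, against 23.6% and 26.1% of 11684 protein-coding genes. Of 440 processed pseudogenes 15% were higher and 5.45% lower.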
